A study of Mus musculus with 10 samples.

Results

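Peaks of the RNA mark N6-methyladenosine (m6A) that lay in coding sequence and within a single exon were collected from the liver of wild-type C57BL/6J mice at day 1, 1 week, 2 weeks and 8 weeks after birth. A peak was taken when the deposited list gave it the class CDS, a protein-coding gene and 1 block, where a block is an unbroken stretch of the genome. This gave 13859 of 32804 peaks, in 3945 genes. They are called one-exon coding peaks here. At day 1 there were 4057, at 1 week 4062, at 2 weeks 3668 and at 8 weeks 2072. The study sampled 5 ages, with 1 input and 1 immunoprecipitated (IP) library labelled for each, or 10 samples in all, and 1 peak list was used for each of 4 ages. The list labelled 4 weeks repeated that of 2 weeks in every column but the gene name, in which 12 rows differed, so it was not counted. Each list compares IP with input of its own age, and the sources do not give how the animals of an age were combined. With 1 list per age no test between ages was possible, and all differences between ages are descriptions. Intervals are 95% Wilson intervals, which cover counting error only.

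m6A is written on nascent mRNA by a complex with METTL3 and METTL14, mostly at the A of a sequence such as GGAC, and is bound by reader proteins of the YTH family. In mammalian mRNA the mark is best known near stop codons and in unusually long internal exons. The protein complex that splicing leaves upstream of each exon junction is known to keep the writer away from the surrounding stretch of mRNA. A peak is a stretch where IP reads exceed input reads, not a single modified base, and a stretch without a peak is not a stretch without m6A.

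The one-exon coding peaks made up 39.9% (interval 39.0-40.9%) of all peaks at day 1, 44.8% (43.8-45.8%) at 1 week, 41.8% (40.8-42.9%) at 2 weeks and 43.1% (41.7-44.5%) at 8 weeks. Their fold, the deposited ratio of IP over input, had a median of 21.7 at day 1, 22.5 at 1 week, 20.5 at 2 weeks and 19.7 at 8 weeks, beside 18.9, 20.4, 17.6 and 18.3 over all peaks of these lists. Folds of different lists share no common scale. The share of one-exon coding peaks with a false discovery rate (FDR) above 0.05 was 1.13% at day 1, 2.12% at 1 week, 3.08% at 2 weeks and 12.6% at 8 weeks, beside 1.34%, 2.70%, 3.64% and 14.1% of all peaks. Of the peak middles, 98.9% fell in the coding part of the longest protein-coding transcript of their gene. The deposited class itself describes gene annotation, so this is not an independent check of it. Wholly within the coding part of that exon lay 10601 of the 13859 peaks, so many others ran past it. Among hepatocyte markers, 3 of 7 had a peak of any class in some list and only Apob, the main protein of very-low-density lipoprotein, had a one-exon coding peak. Peak lists carry no expression level, so the tissue label could not be checked further with them.

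Peaks of the class CDS lay within one exon far more often than an even spread over the same transcripts would give. Only peaks deposited with that class were counted, so any peaks of other classes that cross a junction are missing from these shares. The part of class labelling in the difference was not tested. Among all coding-sequence peaks whose middle could be placed on a transcript of several exons, 93.3% (92.4-94.0%) of 4076 lay in one exon at day 1, 95.8% of 4001 at 1 week, 94.3% of 3672 at 2 weeks and 96.4% of 2022 at 8 weeks. When a window of each peak's width was moved over every coding position of the same transcript, only 46.7%, 50.1%, 48.7% and 52.4% of the positions kept it within one exon. Among peaks of at most 200 nt the shares were 97.5%, 98.5%, 97.2% and 97.5%, against 54.1%, 56.1%, 55.9% and 57.7% of positions, so the difference was also present for narrow peaks at all 4 ages. Within their exons, the middles of all one-exon coding peaks were near junctions about as often as the fit gives, and somewhat more often at day 1. At day 1, 5.24% (4.58-6.00%) of them lay under 100 nt from a junction, at 1 week 4.56%, at 2 weeks 4.84% and at 8 weeks 6.69% (5.66-7.89%). Of the positions where the same width fits within one exon, 4.02%, 4.43%, 4.61% and 5.97% were that close, so over all widths the middles showed no shortage near junctions beyond that of staying within one exon. Among peaks of at most 200 nt the near-junction shares were 15.6%, 11.3%, 12.1% and 10.6%, against 15.8%, 13.7%, 15.1% and 11.1% of fitting positions, and so lay below the fit at 1 and 2 weeks. Peaks with a log10 FDR of at most -3 lay above the fit at all 4 ages, with 3.48%, 2.99%, 3.15% and 5.86% against 1.65%, 1.99%, 1.64% and 4.13%. The comparison thus depends on which peaks are kept.

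**Figure D1:**
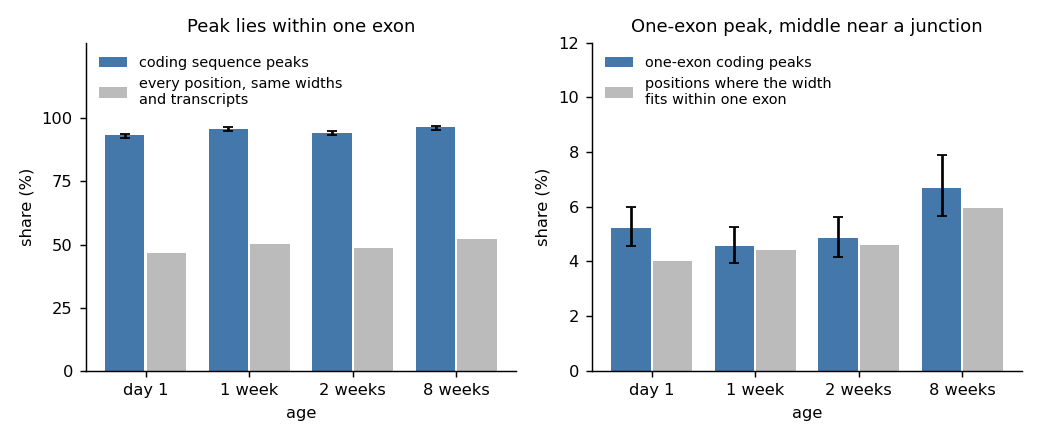
Share of coding-sequence peaks that lie within one exon (left) and share of one-exon coding peaks whose middle is under 100 nt from an exon junction (right), in percent, at each age; blue bars are the peaks with their 95% Wilson intervals, and grey bars are every position on the same transcripts (left) or the positions where the width fits within one exon (right). Within-exon shares of the peaks sit between 93.3% and 96.4% against 46.7% to 52.4% for every position, and near-junction shares between 4.56% and 6.69% against 4.02% to 5.97%.

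The rule separates peaks by their blocks, and some peaks just outside it were nearly within one exon. Coding peaks of several blocks numbered 325 at day 1, 190 at 1 week, 236 at 2 weeks and 86 at 8 weeks, of which 225, 129, 162 and 53 had 2 blocks. In 98, 62, 76 and 32 of them, no more than 30 nt lay outside the largest block.

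Short coding stretches from some of the strongest shared regions and from liver genes are shown first, because the results below turn on such exons. Ssh2, Dcaf5, Bcl9l, Cited2 and Zfp281 come from the regions with the highest lowest fold over the 4 ages, and Foxa2, Cyp8b1, Irs2 and Apob were chosen after their values were seen, as liver genes with a region at every age. Each stretch has 64 nt, is written 5′ to 3′ on the transcript strand with every GGAC in capitals, lies wholly in coding sequence, and was read from the RefSeq genome of build mm10 (GRCm38). Its middle GGAC lay inside a one-exon coding peak at all 4 ages. For Ssh2 at 8 weeks it lay outside the region's peak of highest fold, which began at position 77455216.
Ssh2, chr11:77454976-77455039, plus strand: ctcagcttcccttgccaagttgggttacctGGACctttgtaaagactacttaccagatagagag
Dcaf5, chr12:80338803-80338866, minus strand: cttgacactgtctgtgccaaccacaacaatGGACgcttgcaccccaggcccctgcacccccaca
Bcl9l, chr9:44506208-44506271, plus strand: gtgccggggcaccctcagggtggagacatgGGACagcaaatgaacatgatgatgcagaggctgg
Cited2, chr10:17724683-17724746, plus strand: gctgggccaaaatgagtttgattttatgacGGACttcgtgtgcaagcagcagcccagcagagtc
Zfp281, chr1:136627820-136627883, plus strand: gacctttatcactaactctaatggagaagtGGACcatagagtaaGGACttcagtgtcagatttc
Foxa2, chr2:148043658-148043721, minus strand: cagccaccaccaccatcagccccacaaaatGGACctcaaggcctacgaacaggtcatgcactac
Cyp8b1, chr9:121915665-121915728, minus strand: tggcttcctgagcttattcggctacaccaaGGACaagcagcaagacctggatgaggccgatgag
Irs2, chr8:11007654-11007717, minus strand: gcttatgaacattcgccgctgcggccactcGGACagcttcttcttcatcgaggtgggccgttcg
Apob, chr12:8009132-8009195, plus strand: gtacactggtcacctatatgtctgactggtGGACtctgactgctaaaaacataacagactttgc
A GGAC in a peak is a match of letters, not a measured modified base.

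The exons that held these peaks were long. The coding part of the host exon had a median of 1030 nt at day 1, 1070 nt at 1 week, 1040 nt at 2 weeks and 972 nt at 8 weeks. Coding peaks over junctions had their middle in exons with medians of 539, 416, 335 and 187 nt. Host exons with a coding part of at least 400 nt held 83.4% (82.2-84.5%) of the one-exon middles at day 1, 85.9% (84.8-87.0%) at 1 week, 84.3% (83.1-85.5%) at 2 weeks and 81.9% (80.1-83.5%) at 8 weeks. Such exons made up 59.2%, 59.7%, 58.6% and 57.5% of the coding length of the same transcripts. Requiring a peak to fit in 1 exon already favours long exons, however. Of all positions where a window of the same width fitted within 1 exon with its middle in coding sequence, 84.1%, 85.2%, 83.7% and 80.7% were in exons of at least 400 nt. The observed shares therefore lay within 1.2 percentage points of this base, so long exons held about as many one-exon coding peaks as the fit itself gives.

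By type of exon, internal coding exons held 36.3% of the middles at day 1, last coding exons 33.1%, first coding exons 17.0% and exons that hold the whole coding sequence 13.6%. The share in last coding exons was 32.2% at 1 week, 32.8% at 2 weeks and 34.4% at 8 weeks. The same fitting base gave 32.3%, 31.2%, 31.8% and 31.2% for last coding exons at the 4 ages. Last coding exons thus lay above their base by 0.78, 1.00, 0.99 and 3.2 percentage points. When an exon counted as last in any coding transcript of the gene, the shares were 39.4%, 38.7%, 39.1% and 40.0%. The median fold was lowest in short coding exons at every age. At day 1 its median was 9.11 in coding exons under 200 nt, 11.2 from 200 to under 400 nt, 23.2 from 400 to under 1000 nt, 26.6 from 1000 to under 2000 nt and 28.0 in longer ones. The same medians were 10.9, 13.8, 22.5, 26.2 and 26.2 at 1 week, 10.5, 13.2, 23.4, 24.6 and 23.1 at 2 weeks and 14.1, 16.9, 23.0, 21.2 and 18.2 at 8 weeks. The longest exons alone had the highest median at day 1 only.

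When the coding sequence was cut into 5 equal parts, the part at the 3′ end held the most middles, with 27.1% (25.7-28.5%) at day 1, 25.8% (24.5-27.2%) at 1 week, 26.7% (25.3-28.2%) at 2 weeks and 29.4% (27.4-31.4%) at 8 weeks. The part at the 5′ end held 16.1%, 16.1%, 16.0% and 15.2%. Within 200 nt of the stop codon lay 18%, 16.4%, 17.0% and 19.5% of the middles, against 10.6%, 9.92%, 10.4% and 10.5% for an even spread over the same coding sequences. An even spread, over the 5 parts or near the stop codon, does not allow for the requirement to fit in 1 exon. At day 1 last coding exons made up 22.2% of the coding length but 32.3% of the fitting positions. How much of the values near the 3′ end comes from that requirement was not tested. Peaks assigned to the stop codon itself belong to another class and are not in these counts.

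The longest internal host exons among genes with one-exon coding peaks at all 4 ages were those of Stard9, a mitotic kinesin, with 9837 nt, Spen, a transcriptional repressor that binds RNA, with 8020 nt, and Apob with 7467 nt. They were followed by Srrm2 (6569 nt) and Son (5970 nt), scaffold proteins of nuclear speckles, Map1b (6490 nt), which binds microtubules, Bod1l (5953 nt), and Hivep1 (5939 nt), a zinc finger transcription factor. Among the longest last coding exons were those of Ahnak, a giant scaffold protein (16623 nt), Zfp292, a zinc finger protein (7080 nt), Apc, the scaffold of the beta-catenin destruction complex (6574 nt), Usf3 (6407 nt), Plec, a linker of the cytoskeleton (6213 nt), Exph5 (5258 nt) and Akap12, an anchor of protein kinase A (4787 nt).

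Apob exon 26 was covered at every age. One-exon coding peaks took up 88.3% of its 7467 nt at day 1 in 4 peaks, 89.1% at 1 week in 4, 69.9% at 2 weeks in 7 and 71.1% at 8 weeks in 8. Their folds ran from 5.81 to 14.7 at day 1, 10.2 to 36.5 at 1 week, 2.97 to 23.8 at 2 weeks and 1.67 to 26.2 at 8 weeks. Coverage thus counts peaks of low fold like any other. In the other 14 exons the covered share at 8 weeks lay between 0% and 28.2%, the latter in Spen. Ahnak exon 5 held 16, 20, 19 and 11 peaks from day 1 to 8 weeks, which covered 68.6%, 50.2%, 42.7% and 12% of it. Zfp292 exon 8 had 7, 9, 10 and 5 peaks over 64.2%, 65.9%, 55.6% and 18.7% of its coding part. Stard9 exon 22 had 8, 8, 8 and 4 peaks over 29.3%, 25.1%, 27.8% and 8.88%. These 3 exons were least covered at 8 weeks. Hivep1 exon 4 had 6, 9, 8 and 0 peaks.

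Some of the empty stretches were filled by coding peaks over a junction. Spen exon 12 had 1 one-exon coding peak at day 1, over 12.3% of its length, and 9, 10 and 9 at the later ages, over 64.0%, 66.3% and 28.2%. At day 1 a single coding peak of 4 blocks and 6205 nt, with a fold of 140, covered another 74.1% of the exon. Bod1l exon 10 was likewise covered over 29.2% by one-exon coding peaks at day 1 and over 46.5% by a peak of 2 blocks. Outside Spen, Son, Bod1l, Apc, Usf3 and Plec, no peak of another kind touched these 15 exons in any list.

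**Figure D2:**
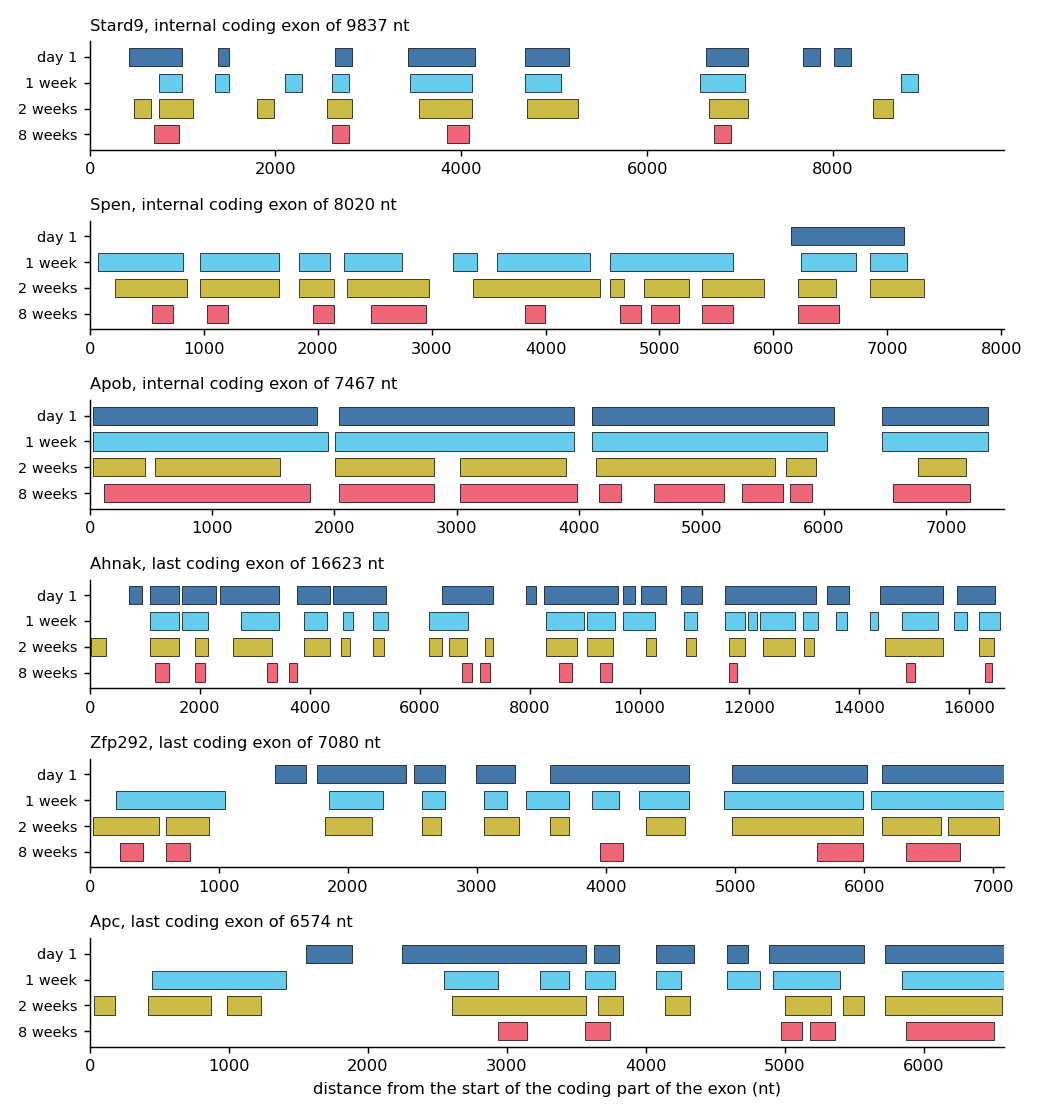
One-exon coding peaks (bars) along the 3 longest internal and 3 of the longest last coding exons of genes with such peaks at all 4 ages; the horizontal axis is the distance from the start of the coding part in nt, and rows are ages. Apob is covered at every age, from 69.9% to 89.1%, while 8-week peaks cover 12% of Ahnak and 18.7% of Zfp292, and the empty part of the day 1 row of Spen lies under a 4-block peak that is not drawn.

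At the 3 younger ages the peaks were wider than those of the 3′ end, and at all ages they were narrower than coding peaks over junctions. Their median width was 300 nt at day 1, 269 nt at 1 week, 270 nt at 2 weeks and 181 nt at 8 weeks. Peaks of the 3′ UTR and stop codon had medians of 270, 240, 211 and 181 nt, and coding peaks over junctions 569, 450, 388 and 241 nt. At 8 weeks 16.5% of the one-exon coding peaks had a width of exactly 181 nt, against 6.29% at day 1. Peaks of 1000 nt or more made up 5.64% at day 1, 2.54% at 1 week, 2.89% at 2 weeks and 0.290% at 8 weeks. The widest was that of Nrip1, a nuclear receptor corepressor whose coding sequence lies in 1 exon, with 3809 nt and a fold of 1010 at day 1. The next were Rnf213, a ubiquitin ligase, with 3270 nt, and Srrm2 with 2784 nt, both at day 1. With each list shortened by p-value to the length of the 8-week list, the medians were 480, 361 and 361 nt at the 3 younger ages.

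**Figure D3:**
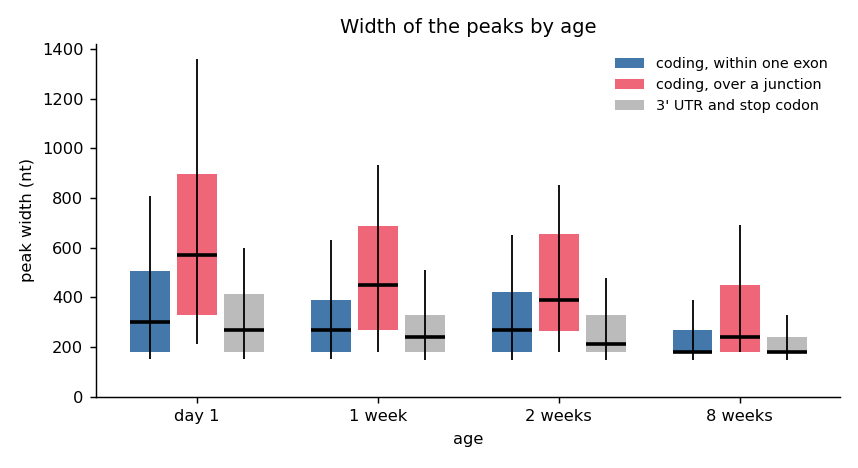
Width in nt of one-exon coding peaks (blue), coding peaks over a junction (red) and 3′ UTR and stop codon peaks (grey) at each age; boxes run from the lower to the upper quartile, thick lines are medians and thin lines run from the 10th to the 90th percentile. One-exon coding peaks have medians of 300, 269, 270 and 181 nt.

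Most genes had a single one-exon coding peak in a list. Genes with 2 or more made up 29.8% (28.0-31.5%) of 2652 genes at day 1, 32.6% (30.8-34.5%) of 2535 at 1 week, 29.5% (27.7-31.3%) of 2396 at 2 weeks and 23.7% (21.6-25.9%) of 1500 at 8 weeks. The 8-week list was also the shortest. In lists of equal length the share was 20.8%, 24.9% and 23.1% at the 3 younger ages, on both sides of the 8-week value. Peaks kept in those lists were wider than in the full lists, with medians of 480, 361 and 361 nt. The part of list length in the lower share was not tested. The number followed exon length. In coding exons of 400 to under 1000 nt that held a peak there were 1.06 peaks per exon at day 1 and 1.07 at 8 weeks. In exons of 4000 nt and over there were 4.10 at day 1, 4.87 at 1 week, 4.33 at 2 weeks and 3.04 at 8 weeks. Per kb the longest exons held fewer peaks, 0.693 at day 1 against 1.58 in those of 400 to under 1000 nt, where 1 peak per exon is the least possible.

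Summed over the lists, Ahnak had 66 peaks, Zfhx3, a transcription factor with zinc fingers and homeodomains, 44, Plec 39, Fat4, a giant protocadherin, 36, and EPPK1, the cytoskeletal linker epiplakin, 34. Zfhx3 had 13, 11, 14 and 6 from day 1 to 8 weeks. Plec had 8, 14, 7 and 10, and so was not lowest at 8 weeks. Fat4 had 14, 12, 5 and 5. EPPK1 had 12, 5, 12 and 5, all in 1 coding exon of 10374 nt. Its coding sequence is made of highly similar repeats, and the sources do not say how reads were shared between such copies, so its count is uncertain.

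The lists shared a large part of these peaks. Of the one-exon coding peaks at 1 week, 72.4% (71.0-73.7%) overlapped a peak of any class at day 1 by at least 1 nt on the same strand, beside 72.0% of all peaks of that list. At 2 weeks the share was 72.5% (71.0-73.9%), beside 67.6% of all peaks, and at 8 weeks 59.1% (56.9-61.2%), beside 57.9%. In the other direction 24.1% (22.8-25.4%) of the day 1 peaks overlapped a peak at 8 weeks, beside 24.4% of all peaks. Over all 12 ordered pairs of lists the difference from the share of all peaks ran from -0.30 to 8.2 percentage points. It was furthest above for the 2-week peaks by 1 week (72.7% beside 64.5%), the 8-week peaks by 1 week (65.3% beside 59.9%) and by 2 weeks (64.7% beside 59.6%). Counting only one-exon coding peaks on both sides, the shares were 50.9% of the 8-week peaks by day 1 and 22.8% of the day 1 peaks by 8 weeks. In lists of equal length these were 43.2% and 38.1%. When the overlap had to cover 50% of both peaks, they were 18.1% and 9.27%. Peaks shared with another list were wider and of higher fold: the day 1 peaks with an 8-week partner had a median width of 541 nt and a median fold of 60.9, the rest 268 nt and 17.5.

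Merged over the 4 lists, the peaks formed 6416 regions. Of these 2958 (46.1%) were in 1 list, 1407 (21.9%) in 2, 1332 (20.8%) in 3 and 719 (11.2%, 10.5-12%) in all 4. Regions merged from all peaks gave like shares, 47.5% of 15341 in 1 list, 20.7% in 2, 19.6% in 3 and 12.2% in all 4. When a peak of any class counted, 2592 (40.4%) of the one-exon coding regions were in 1 list and 929 (14.5%) in all 4. Peaks of regions in 1 list had a median width of 181 nt and a median fold of 11.6, and 65.2% of these regions lay in coding exons of at least 400 nt. Peaks of regions in all 4 lists had 361 nt and 44.3, and 93.5% of the regions lay in such exons. Wider peaks overlap others more easily, and the part of width in this order was not tested. With an overlap of 50% of both peaks required, 230 day 1 peaks had a partner in every later list, a count of peaks and not of merged regions. The most frequent patterns were day 1 alone (1182), the 3 younger ages without 8 weeks (1034) and all 4 ages (719). At 8 weeks alone there were 545.

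**Figure D4:**
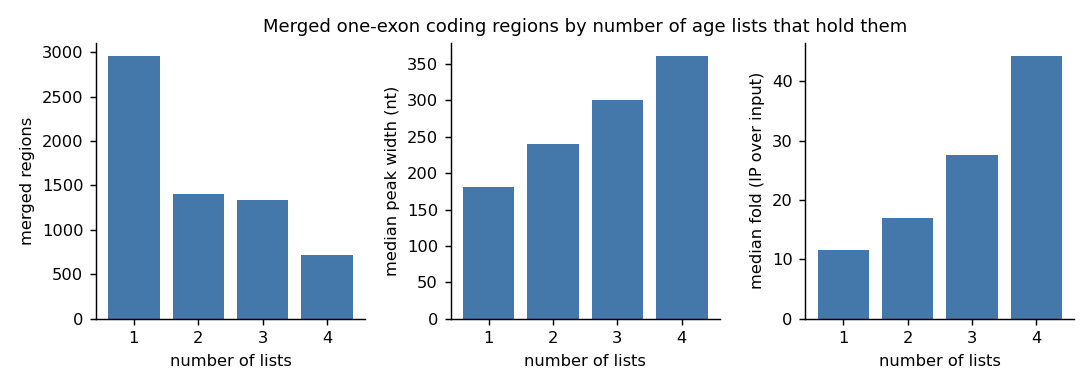
Merged one-exon coding regions by the number of age lists (1 to 4) that hold them: number of regions (left), median width of their peaks in nt (middle) and median fold of IP over input (right). Regions fall from 2958 in 1 list to 719 in all 4, while the median width goes from 181 to 361 nt and the median fold from 11.6 to 44.3.

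Among the regions present at every age, Apc had the highest lowest fold. It lay in the last coding exon, with a fold of 719 at day 1, 633 at 1 week, 787 at 2 weeks and 1070 at 8 weeks, and widths of 899, 839, 839 and 630 nt. The next regions, with their highest folds from day 1 to 8 weeks, were Ssh2, a cofilin phosphatase (447, 848, 462 and 495), Dcaf5, a substrate receptor of a ubiquitin ligase (403, 503, 283 and 553), and Bcl9l, a coactivator of beta-catenin (246, 625, 1330 and 377). Cited2, a partner of the acetyltransferases CBP and p300 that takes part in liver development, had folds of 216, 332, 340 and 405. Zfp281 had 869, 270, 569 and 200, Heca 477, 807, 343 and 195, and Tor1aip2, which activates torsin ATPases, 380, 242, 417 and 187. Scaf8, which binds RNA polymerase II, had 198, 456, 359 and 182, and Filip1l 257, 180, 467 and 213. Of these 10 regions, 6 lay in last coding exons, 2 in internal exons (Bcl9l and Heca) and 2 in exons with the whole coding sequence (Cited2 and Zfp281). Their 8-week peaks were narrower than the day 1 peaks in all 10, for example 360 against 1618 nt in Bcl9l and 211 against 1799 nt in Filip1l. These are the peaks of highest fold: at 8 weeks Bcl9l had 3 peaks in the region and Filip1l 2, against 1 each at day 1.

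At day 1 and 1 week but under no peak of any class at 2 and 8 weeks lay 463 regions (7.22%) in 423 genes. The reverse pattern had 77 regions (1.20%) in 73 genes. Of the regions merged from all peaks 8.29% and 1.25% had these patterns, so the one-exon coding regions were near the background in both. The 8-week list is also the shortest, with 4808 peaks against 10161 at day 1, and in lists of equal length the shares were 4.87% and 2.21%, beside 5.77% and 2.33% over all peaks. Those of highest fold in the early group were Rabgef1, an activator of Rab5, with 224 at day 1 and 382 at 1 week, and the kinase Wnk1, with 64.4 and 276. They were followed by Fam214b (232 and 25.4), Ercc6l, a DNA translocase of mitosis (206 and 9.45), Prss35 (205 and 14.5) and the mitotic kinesin Kif14 (167 and 32.7). In the late group, Arhgap5, a GTPase-activating protein, had 1080 at 2 weeks and 4.46 at 8 weeks, and Ppp1r15b, which directs dephosphorylation of the translation factor eIF2alpha, had 776 and 365. Nup62, of the nuclear pore, had 540 and 84.6, 0610040J01Rik 383 and 59.9, Impad1 381 and 182, and the deubiquitinase Usp10 370 and 49.4. Whether these transcripts were less abundant at the other ages was not tested, since the lists hold no level of input.

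GGAC was denser in the peaks than in the rest of the same coding exons. It occurred 5.68 times per kb in the one-exon coding peaks of day 1, 5.87 at 1 week, 5.99 at 2 weeks and 6.28 at 8 weeks. In the parts of the same coding exons outside every peak of any list it occurred 3.96, 3.99, 4.05 and 4.02 times per kb, which gives ratios of 1.44, 1.47, 1.48 and 1.56. CAGG, searched in the same way as a word of equal length and the same letters, gave ratios of 1.08, 1.09, 1.09 and 1.03. The wider motif DRACH gave 1.23, 1.30, 1.30 and 1.28. Words were searched on the transcript strand only, and overlapping matches were counted. Near the peak middle the density was highest: the middle base and 50 nt on each side of it held 6.65, 6.65, 6.49 and 6.63 GGAC per kb, so the 4 ages were alike there. At least 1 GGAC was present in 79.4% (78.2-80.7%) of the peaks at day 1, 77.1% at 1 week, 78.5% at 2 weeks and 71.5% (69.5-73.4%) at 8 weeks, where peaks were narrowest. The Dcaf5 region whose stretch is printed above had 10 GGAC inside a peak at all 4 ages, that of Cyp8b1 9 and that of Bcl9l 7, while those of Foxa2 and Irs2 had 1 each.

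**Figure D5:**
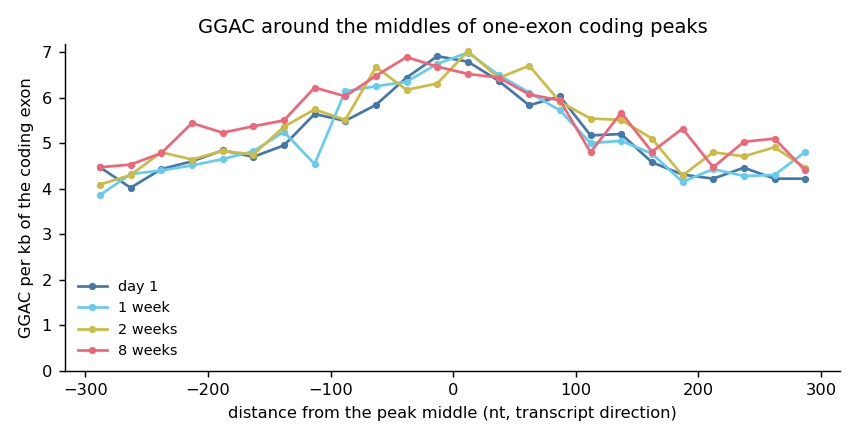
GGAC per kb (vertical axis) in steps of 25 nt by distance from the peak middle in nt (horizontal axis), counted within the coding part of the host exon, for the 4 ages. The curves peak near the middle, at 6.91 per kb just upstream of it at day 1, and flatten toward the 3.96 to 4.05 per kb found outside all peaks.

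Of 8641 genes with a peak of any class, 3945 had a one-exon coding peak in some list. Gene lists were read against these 3945 genes, of which 67.2% had one at day 1, 64.3% at 1 week, 60.7% at 2 weeks, 38.0% at 8 weeks and 19.6% in all 4 lists. Percentages of the lists likewise count only their genes with a one-exon coding peak in some list. All 30 liver transcription factors had a peak of any class, and 17 had a one-exon coding peak in some list. The latter numbered 10 at day 1, 12 at 1 week, 12 at 2 weeks and 14 (82.4%) at 8 weeks, with 7 (41.2%) at all ages. The 4 values given for a gene here and in the lists that follow are its highest fold at day 1, 1 week, 2 weeks and 8 weeks, and their order over ages is not read as a change, since the lists share no scale. Foxa2, a pioneer factor of liver genes, had a highest fold of 351 at day 1, 224 at 1 week, 279 at 2 weeks and 66.3 at 8 weeks. Bhlhe40, a repressor of the clock, had 77.9, 309, 150 and 66.5, and the orphan nuclear receptor Nr2f2 had 119, 111, 196 and 29.6. Of 60 chromatin regulators, 58 had a peak of any class and 53 a one-exon coding peak. The latter numbered 39 at day 1, 45 at 1 week, 41 at 2 weeks and 39 (73.6%) at 8 weeks, with 28 (52.8%) at all ages. The acetyltransferase Ep300 had highest folds of 814, 449, 180 and 81.8, and Tet3, which oxidises 5-methylcytosine, 714, 132, 458 and 18.3. Kat6a, another acetyltransferase, had 105, 630, 252 and 106, and the H3K36 methyltransferase Nsd1 239, 359, 516 and 265.

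Among genes with a one-exon coding peak in some list, 62.5% of the plasma protein and lipoprotein genes had one at 8 weeks. The cytochrome P450 genes had 33.3% and the lipid, sterol and bile acid genes 45.5%, beside 38.0% of all 3945. These lists are small, their differences were not tested, and Cyp8b1 and Cyp7a1 are in both metabolic lists. Of 44 plasma proteins and lipoproteins, 33 had a peak of any class and 16 a one-exon coding peak. The latter numbered 11, 10, 13 and 10 from day 1 to 8 weeks, and 8 at all ages. The coagulation factors F8 (142, 83.6, 88.4 and 127) and F7 (42.7, 94.5, 131 and 100) and kininogen, Kng1 (52.3, 49.6, 53.1 and 84.2), had folds of 84.2 or more at 8 weeks, and Apoa4 had 11.8, 45.0, 14.5 and 4.33. Of 131 cytochrome P450 genes, 35 had a peak of any class and 15 a one-exon coding peak. The latter numbered 6 at day 1, 6 at 1 week, 11 at 2 weeks and 5 at 8 weeks. Cyp8b1, the sterol 12-alpha-hydroxylase, whose coding sequence lies in 1 exon of 1500 nt, had 87.6, 177, 23.5 and 60.2. Cyp7a1, the rate-limiting enzyme of bile acid synthesis, had 38.2, 18.8, 44.5 and 60.6, Cyp1a2 36.9, 45.1, 35.7 and 9.45, and Cyp2u1 33.6, 10.9, 21.1 and 24.0. Of 42 lipid, sterol and bile acid genes, 36 had a peak of any class and 11 a one-exon coding peak. The latter numbered 9, 6, 7 and 5 over the ages. Among them were Cpt2 (30.4, 21.8, 26.3 and 25.9) and Ehhadh (19.1, 10.7, 14.7 and 6.61), both of fatty acid oxidation.

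Among genes with a one-exon coding peak in some list, the 8-week shares were 45.5% for insulin and growth factor signalling and 37.5% for Wnt signalling. They were 53.3% for immediate early and AP-1 genes and 70.0% for m6A writers, erasers and readers, beside the 38.0% of all 3945 genes. Of 35 genes of insulin and growth factor signalling, 32 had a peak of any class and 22 a one-exon coding peak. The latter numbered 17, 15, 16 and 10 over the ages. Irs2 and Irs1, the docking proteins of the insulin receptor, had highest folds of 92.5, 541, 177 and 56.4, and of 160, 48.7, 232 and 202. The hepatocyte growth factor receptor Met had 45.7, 166, 35.4 and 19.7, and the FGF coreceptor Klb 97.4, 21.1, 118 and 15.5. Of 27 Wnt genes, 23 had a peak of any class and 16 a one-exon coding peak, 13, 14, 12 and 6 over the ages. Beside Bcl9l and Apc, the receptor Lgr4 had 135, 740, 152 and 19.7 and Fzd4 129, 125, 68.8 and 70.5. Of 27 immediate early and AP-1 genes, 23 had a peak of any class and 15 a one-exon coding peak. The latter numbered 8, 10, 8 and 8 over the ages. Junb had 49.0, 345, 207 and 52.2, Egr1 95.3, 76.0, 34.9 and 36.7, Zfp36l2 15.1, 27.6, 57.4 and 84.6, and Jun 260, 497 and 444 with none at 8 weeks. Of 20 m6A writers, erasers and readers, 16 had a peak of any class and 10 a one-exon coding peak. The latter numbered 7, 7, 8 and 7 over the ages. The writer subunits Rbm15b (135, 461, 199 and 97.3) and Virma (30.8, 78.5, 46.3 and 7.05) and the readers Ythdf1 (159, 47.3, 53.3 and 79.0) and Prrc2a (5.60, 15.9, 74.1 and 107) had one at every age.

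Zinc finger, scaffold and proliferation genes are set beside all 3945 genes with a one-exon coding peak. Of those, 67.2%, 64.3%, 60.7% and 38.0% had one from day 1 to 8 weeks, and 19.6% in all 4 lists. Differences from these shares were not tested. Of 416 genes named Zfp, 261 had a peak of any class and 184 a one-exon coding peak. Among these 184 genes, 153 (83.2%) had one at day 1, 135 (73.4%) at 1 week, 114 (62.0%) at 2 weeks and 59 (32.1%) at 8 weeks. Zfp292 had highest folds of 102, 2770, 762 and 148, Zfp148 123, 1270, 196 and 66.3, and Zfp609 253, 916, 684 and 144. Of 29 scaffold and linker genes, 25 had a peak of any class, and all 25 had a one-exon coding peak. Among these 25 genes, 22, 23, 20 and 16 had one over the ages and 14 (56.0%) at all of them. The 14 included Macf1 (445, 529, 333 and 42.3), Golga4 (78.3, 515, 244 and 147) and Akap13 (469, 22.1, 130 and 5.44). Of 53 cell cycle and DNA repair genes, 37 had a peak of any class and 25 a one-exon coding peak. Among these 25 genes, 16, 22 and 18 had one at the younger ages and 6 (24.0%) at 8 weeks. The spindle protein Aspm had 321, 209, 29.3 and 14.1, Casp8ap2 268, 130, 299 and 29.6, the recombination mediator Brca2 84.8, 209, 121 and 15.5 and the damage response protein Mdc1 64.1, 48.0, 77.3 and 94.5. Brca2 had 13, 10, 6 and 1 peaks.

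Lists for other liver cells were small, and over all genes the counts fell with age too. Of 8641 genes with a peak of any class, 6336 had one at day 1, 5527 at 1 week, 5521 at 2 weeks and 3448 at 8 weeks. Of the 3945 genes with a one-exon coding peak, 67.2%, 64.3%, 60.7% and 38.0% had one at these ages. Differences of the lists below from these shares were not tested. Among erythroid markers, 5, 5, 1 and 0 of 7 had a peak of any class and 3, 3, 1 and 0 a one-exon coding peak, and of 4 B cell markers 3, 3, 0 and 0 had a peak, none of it of the one-exon kind. Of 6 endothelial markers 3, 2, 2 and 2 had a peak of any class, of 5 stellate markers 2 at each age, of 4 Kupffer markers 2 at each age and of 4 cholangiocyte markers 1, 2, 1 and 0. One-exon coding peaks were present in 1, 0, 0 and 1 of the endothelial markers, in 1 Kupffer marker at each age, in no stellate marker and in 2 cholangiocyte markers at 1 week only. Of 38 erythroid and haematopoietic genes, 28 had a peak of any class and 12 a one-exon coding peak. Among these 12 genes, 8, 6, 4 and 1 (8.33%) had one over the ages and none had one at all of them. The exception at 8 weeks was Zfpm1, the GATA cofactor FOG1, with 42.9 at 1 week, 145 at 2 weeks and 45.1 at 8 weeks. The red cell membrane protein Sptb had 1.47, 267 and 28.7, Nfe2 90.7, 206 and 8.20, and the erythropoietin receptor Epor 33.6 and 8.72 at the first 2 ages. Of 22 endothelial genes, 16 had a peak of any class and 9 a one-exon coding peak, 6, 5, 4 and 2 over the ages. Among them was Cdh5, VE-cadherin, with 83.7, 150, 578 and 196. Notch1 had 44.1, 20.0 and 17.0, Erg 38.5, 23.3 and 11.7, and Sox18 13.5 and 15.3, each from day 1 on. Of 20 stellate and matrix genes, 11 had a peak of any class and 5 a one-exon coding peak, 3, 4, 3 and 0 over the ages. Fbn1 had 66.4, 313 and 185 and Lum 22.4, 21.8 and 18.7. Ngfr had 14.7 and 12.4 at the first 2 ages and Nid1 5.23 at 1 week. Of 14 genes in the list of Kupffer and cholangiocyte markers, 6 had a peak of any class and 3 a one-exon coding peak. Clec4f, a receptor of Kupffer cells, had 116, 382, 185 and 32.3. Spp1 (8.54) and Sox9 (7.27) had a one-exon coding peak at 1 week only. In whole liver, fewer cells of a type and less RNA or less m6A per cell cannot be told apart.

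Mitochondrial transcripts made up 10, 10, 11 and 9 of the peaks, in 9 genes, with folds from 1.11 to 17.0 and a median of 2.22, far below the medians over all one-exon coding peaks. mt-Nd4, a subunit of respiratory complex I, had 3, 2, 2 and 2 peaks, and mt-Cytb, of complex III, 1 at each age. mt-Nd6 lies on the opposite strand from the others, and the library kit named in the labels does not mark strand, so its reads cannot be told apart from those of the other strand.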

How the data were processed

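RNA of mouse liver was fragmented, and m6A-RIP and input libraries were sequenced by the authors. The labels describe poly(A) selection, the study's methods total RNA with removal of rRNA. Per the labels and the study's methods, reads were aligned with HISAT2 to mm10 and peaks called with exomePeak, IP over input. HOMER is named too. Each deposited list gives a fold enrichment (a linear ratio of IP over input), a deposited log10 score for p and FDR, and a p-value per peak. No read counts were used, so the depth and its precision are unknown. Deposited positions count from 0 and are printed from 1: 92.9% of 1228 inner block ends fell on exon ends when counted so.

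Host exons came from the longest protein-coding transcript per gene in the GENCODE annotation and letters from the RefSeq GRCm38 genome. The base for exon shares counted every position where the peak's width fitted in 1 exon with a coding middle. It was planned for windows wholly in coding sequence, which for the 10601 peaks lying wholly in it gave 91.3% (day 1), 91.0%, 91.0% and 87.9% (8 weeks) in long exons, against 92.2%, 93.0%, 92.8% and 90.0% observed. Genes were matched to lists by the deposited symbol or the GENCODE symbol of the gene ID.

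The genes named are the 5 with the most peaks, 10 regions at all ages by their lowest fold, 8 longest internal and 8 longest last exons, 6 regions of highest fold called only early and 6 only late, and up to 4 per gene list by number of ages and fold. Of the last exons 1 is not reported here. The one-exon coding peaks and the 16 lists were chosen with earlier results of these data known. Alternatives tried were stricter limits (FDR 0.05 or a log10 FDR of -3, fold 5), lists of equal length, other exon limits, transcripts, overlaps and motifs. Analyses used Python 3.11.15, NumPy 2.4.6, pandas 2.3.3 and SciPy 1.17.1, and functions were tested on simulated data.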

Additional observations from a re-analysis of the deposited data

How the results depend on the processing

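No paired analysis was possible because each age had 1 list and no replicate columns. Of 183 alternative values for 38 results, 105 stayed within their interval (counts: within 1.5 times) and 78 moved. Why they moved was not tested. The limits are that depth and input levels are unknown and that fold and list length differ between lists.

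With lists of equal length the one-exon coding peaks numbered 2005 (day 1), 2214 (1 week) and 2158 (2 weeks), their median widths were 480, 361 and 361 nt, their shares in long coding exons 88.7%, 89.7% and 88.3%, and genes with several 20.8%, 24.9% and 23.1%. Overlap was 38.1% for day 1 by 8 weeks and 43.2% for 8 weeks by day 1, and GGAC 5.55 per kb at day 1. With a log10 FDR of at most -3 the median widths were 359, 300, 330 and 211 nt from day 1 to 8 weeks, long-exon shares 85.4% (day 1) and 86.7% (2 weeks), genes with several 25.6%, 30.1% and 26.3% at the 3 younger ages, and 5 gene lists in place of 8 lay below all genes at 8 weeks. With an FDR of at most 0.05 the 8-week width was 210 nt, day 1 overlap by 8 weeks 20.9%, and 5 lists lay below. With a fold of at least 5 the day 1 width was 301 nt and long-exon shares 86.1% (day 1) and 87.1% (1 week).

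When long meant at least 200 nt the shares were 95.0%, 96.1%, 95.2% and 95.1%, and at least 1000 nt 51.5%, 53.3%, 51.8% and 48.9%. Last coding exons of any transcript held 39.4%, 38.7%, 39.1% and 40.0%. With 50% of both peaks, overlap was 9.27% (day 1 by 8 weeks) and 18.1% (8 weeks by day 1), and 230 day 1 peaks had a partner in every later list. With only the middle base and 50 nt on each side it was 13% and 25.5%, and GGAC was 6.65, 6.65, 6.49 and 6.63 per kb. DRACH occurred 23.3, 24.5, 24.4 and 24.6 times per kb.

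For early and late regions and for coding peaks within one exon and near a junction, alternatives were chosen after seeing the data. In lists of equal length 187 regions were early only, and 85 late only. The share within one exon was 89.5%, 93.8% and 92.1% at the 3 younger ages in lists of equal length, 92.2% (day 1) and 93.0% (2 weeks) at a log10 FDR of at most -3, and 97.5%, 98.5%, 97.2% and 97.5% among peaks of at most 200 nt. Every position gave 40.4% to 57.7% within one exon over these settings. The near-junction share of one-exon coding peaks at the 3 younger ages was 1.84%, 1.74% and 2.25% in lists of equal length (0.320%, 0.388% and 0.604% of fitting positions) and 3.48%, 2.99% and 3.15% at a log10 FDR of at most -3 (1.65%, 1.99% and 1.64%). At a fold of at least 5 it was 3.83% (day 1) and 3.76% (1 week), against 3.09% and 3.83%. Among peaks of at most 200 nt it was 15.6%, 11.3%, 12.1% and 10.6% from day 1 to 8 weeks, against 15.8%, 13.7%, 15.1% and 11.1%.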
